A study of Mus musculus with 27 samples.

Results

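P2 cells of mouse hindlimb muscle were compared with P2 cells of the periosteum, the cell layer that covers bone. P2 is the sorted fraction of Prx1-derived cells that lacks CD45, CD105 and CD200 on its surface, and the comparison took all 3 P2 libraries of muscle and all 3 of periosteum, 6 of the 27 libraries of the series. The mice carried Prx1-Cre/ERT2-EGFP, in which a tamoxifen-dependent Cre recombinase is driven by the Prx1 promoter, the Ai14 allele, from which Cre switches on the red reporter tdTomato, and a mutated Rag1 gene, without which mature B and T cells do not form. Both groups shared these alleles, an age of 8 to 12 weeks, the use of males and females, 2 tamoxifen doses 48 h apart and a harvest 3 days after the second dose. Muscle was digested for 60 min and periosteum for 20 min, so digestion time and tissue cannot be told apart. The tissues came from the same animals, 3 mice per group, but the labels do not say which animal gave which library. Unless said otherwise, p-values rest on the spread between libraries within the 9 groups of the series, 27 libraries in all, and not on these 6 alone.

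Prx1, encoded by Prrx1, is a homeobox factor of the early limb mesenchyme, whose descendants include cells of bone, cartilage, tendon and the connective tissue of muscle. Contractile muscle fibres come from another source, the somites, and fill their cytoplasm with sarcomeres, calcium stores and the enzymes that make ATP. Red cell precursors, which lose CD45 as they mature, are known for dividing while they load globin and heme, and chondrocytes for depositing a matrix of collagens II, IX and XI. The gene groups below cover these programmes and the other cell types that muscle, periosteum or the adjoining marrow could hold.

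The deposited values were normalized counts, which summed to between 13986188 and 24062770 per library in these 6, with 13103 to 16144 genes above 0. Periosteum P2 libraries resembled each other less (r of 0.631 to 0.672 over all genes tested, on the log2 scale) than muscle P2 libraries did (0.862 to 0.874). The table's transgene entry read 26650, 27124 and 15527 in muscle P2 and 13598, 9235 and 13517 in periosteum P2. The sorting markers were low in both tissues. Ptprc, which encodes CD45, read 118, 25.6 and 100.03 in muscle P2 and 18.5, 32 and 184 in periosteum P2. The tissues overlapped for it. Eng, which encodes CD105, read 569, 364 and 146 in muscle P2 and 66.7, 11.8 and 249 in periosteum P2, against 6067, 5621 and 4523 in the CD105-positive P3 cells of muscle. Cd200 read 10.3, 1107 and 69.5 in muscle P2 and 52.8, 9.08 and 7.24 in periosteum P2, against 1025, 3274 and 2560 in the CD200-positive P1 cells of muscle, so that the second muscle P2 library alone came into the range of P1. Prrx1 itself read 1146, 878 and 2371 in muscle P2 and 2377, 64 and 302 in periosteum P2. The groups overlapped for all of these markers except the transgene entry, which was higher in each muscle library and was left out of the tests, and none was called.

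The first question was how many genes separated the tissues. Of 18442 genes tested with limma on log2(normalized count + 1), 5157 (28%) were called at an adjusted p under 0.05 and an absolute log2 fold change above 1.5. Of the tested genes, 3246 (17.6%) were called higher in muscle P2 and 1911 (10.4%) higher in periosteum P2. Log2 fold changes are given throughout as muscle minus periosteum, so that a negative value means more in periosteum, and the median over all genes tested was 0.25. Quantile normalization of the same values called 2548 genes higher in muscle and 2616 higher in periosteum, in place of 3246 and 1911. The 9 groups of the series shared the estimate of the spread, and a fit of the 6 P2 libraries alone called 1789 genes, of which 1697 were among the 5157. Among called genes, the 3 libraries of each tissue did not overlap for 2611 genes higher in muscle and 1621 higher in periosteum. Of the called genes, 370 that were higher in muscle were listed at 0 in all periosteum P2 libraries, and 202 that were higher in periosteum were listed at 0 in all muscle P2 libraries. In these bulk samples, fewer cells of a type and less RNA per cell cannot be told apart.

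**Figure D1:**
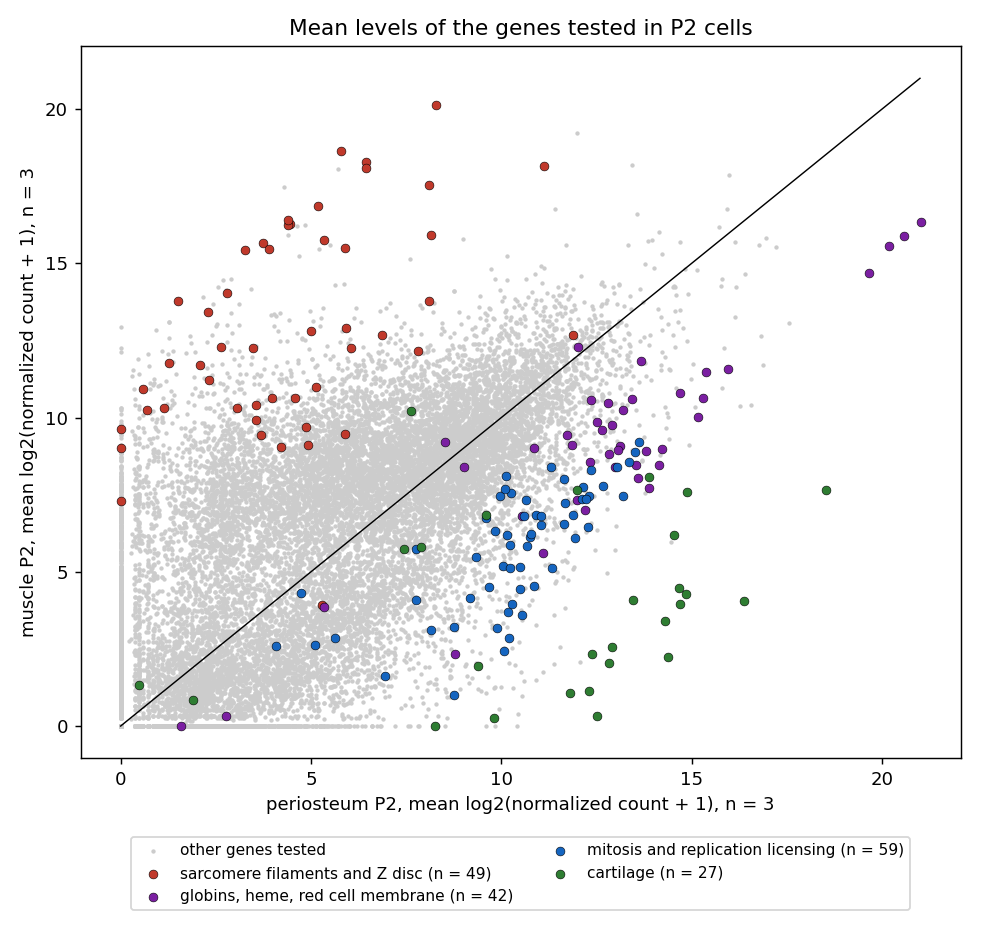
Each point is a gene tested, placed by its mean log2(normalized count + 1) over 3 periosteum P2 libraries (x axis) and 3 muscle P2 libraries (y axis), with the line of equal levels and 4 gene groups in colour. Sarcomere genes other than Myh8 lie above the line, and globin and heme, mitosis and licensing, and cartilage genes mostly below it.

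Genes of the contractile apparatus were higher in muscle P2. Of the 15 thick filament genes tested 14 were called higher in muscle, as were 14 of 15 thin filament genes and 17 of 19 genes of the Z disc and titin, with median log2 fold changes of 9.56, 7.30 and 7.81, and none was called higher in periosteum. These counts stand against 17.6% of all genes called higher in muscle. The thin filament genes alone made up 16.0%, 12.5% and 12.1% of the 3 muscle P2 libraries and 0.0558%, 0.055% and 0.0316% of those of periosteum. Acta1, the actin of skeletal muscle fibres, read 1030840, 1275860 and 1125390 in muscle P2 and 45.5, 1063 and 604 in periosteum P2 (log2 fold change 11.84, SE 1.28, adjusted p = 3.71e-07). Muscle libraries were high for it without exception, and the first periosteum library was the lowest. Tnnc2, the fast fibre troponin that binds calcium, read 914956, 272643 and 273561 in muscle P2 and 3.06, 229 and 185 in periosteum P2 (log2 fold change 12.84, SE 1.74, adjusted p = 6.96e-06). Myl1, a myosin light chain, read 267083, 373078 and 337211 in muscle P2 and 8.66, 368 and 188 in periosteum P2 (log2 fold change 11.85, SE 1.28, adjusted p = 3.66e-07).

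Isoforms of both fast and slow fibres were higher in muscle. The values are not per length, so levels are compared between libraries and not between genes. Myh4, the myosin heavy chain of the fastest fibres, read 74646, 71598 and 88995 in muscle P2 and 0, 113 and 82.1 in periosteum P2 (log2 fold change 11.85, SE 1.4, adjusted p = 1.15e-06). Myh7, the slow heavy chain, read 715, 611 and 769 in muscle P2 and 16.7, 7.27 and 13.7 in periosteum P2 (log2 fold change 5.75, SE 1.23, adjusted p = 0.00112). Both were apart between the tissues in each library. Myh8, the perinatal heavy chain, was the thick filament gene not called, and read 6.59, 13.2 and 30.8 in muscle P2 and 35.5, 45.7 and 34.1 in periosteum P2. In the thin filament only Tpm3, a tropomyosin that cells outside muscle also make, was not called (log2 fold change 0.78, SE 0.28, adjusted p = 0.038). Tpm1 read 246621, 311645 and 330468 in muscle P2 and 2004, 7777 and 714 in periosteum P2 (log2 fold change 7.04, SE 0.49, adjusted p = 6.89e-10). All 3 muscle libraries lay above the periosteum libraries for Tpm1.

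Genes of filament ends, the Z disc and the cytoskeleton were also apart. The actin capping protein gene Tmod4 read 15007, 11653 and 15652 in muscle P2 and 0, 5.43 and 2.52 in periosteum P2 (log2 fold change 12.27, SE 1.31, adjusted p = 3.17e-07). The Z disc gene Myot read 41874, 47112 and 44688 in muscle P2 and 0, 44.1 and 19 in periosteum P2 (log2 fold change 12.17, SE 1.24, adjusted p = 1.62e-07). Myoz1, which anchors calcineurin at the Z disc, read 81481, 90078 and 88354 in muscle P2 and 1.68, 72.3 and 47.2 in periosteum P2 (log2 fold change 12, SE 1.34, adjusted p = 5.77e-07). For both Z disc genes the first periosteum library was the lowest. Des, the intermediate filament protein desmin, read 55572, 69203 and 134168 in muscle P2 and 3, 68.8 and 36.6 in periosteum P2 (log2 fold change 11.84, SE 1.3, adjusted p = 4.61e-07). Ttn, the giant spring protein titin, varied most among muscle libraries and read 198508, 11846 and 99927 in muscle P2 and 522, 379 and 112 in periosteum P2 (log2 fold change 7.77, SE 1.61, adjusted p = 0.000811). No periosteum library reached the lowest muscle library for Ttn. Among the Z disc members not called was Flnc, filamin C (log2 fold change 3.58, SE 1.37, adjusted p = 0.0523).

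Calcium handling and energy supply followed the same direction. Of 18 genes for calcium release and uptake 17 were called higher in muscle (median 8.67), and of 25 genes for energy supply 24 were (median 9.21). The share of all genes tested was again 17.6%. Atp2a1, the calcium pump of fast fibres, read 173476, 203026 and 593024 in muscle P2 and 1.3, 213 and 287 in periosteum P2 (log2 fold change 12.37, SE 1.68, adjusted p = 6.99e-06). Its relative of slow fibres and many other cells, Atp2a2, overlapped between the tissues at 313, 709.6 and 602 in muscle P2 and 559.8, 1538 and 741 in periosteum P2 (adjusted p = 0.243). Pvalb, a calcium buffer of fast fibres, read 71712, 77722 and 80449 in muscle P2 and 3.38, 65.9 and 52.4 in periosteum P2. The calcium channel gene Cacna1s read 8806, 5791 and 5394 in muscle P2 and 0, 5.26 and 22.5 in periosteum P2. For both genes each muscle library was above each periosteum library. Ckm, the creatine kinase that recharges ATP, had the largest fold change of all genes called without overlap and read 166300, 195979 and 188034 in muscle P2 and 0, 153 and 47.2 in periosteum P2 (log2 fold change 13.20, SE 1.34, adjusted p = 1.56e-07). Aldoa, a glycolytic enzyme that most cells use, read 547347, 694761 and 611149 in muscle P2 and 4073, 3387 and 4959 in periosteum P2 (log2 fold change 7.23, SE 0.25, adjusted p = 1.56e-15). Its spread was small in both tissues, as was that of Gapdh, at 288919, 333702 and 273911 in muscle P2 and 9443, 10202 and 13713 in periosteum P2 (log2 fold change 4.76, SE 0.21, adjusted p = 1.57e-13). Most cells use both enzymes, and the tissues did not overlap for either. Ldha, which makes lactate, read 89608, 111610 and 100608 in muscle P2 and 8070, 16686 and 13088 in periosteum P2 (log2 fold change 3.05, SE 0.28, adjusted p = 4.14e-08). Pfkm was the single energy gene not called, with 1896, 2404 and 2777 in muscle P2 and 398, 393 and 223 in periosteum P2 (log2 fold change 2.83, SE 1.7, adjusted p = 0.218), although its libraries did not overlap.

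Promoters of 2 of these genes are shown because the muscle genes moved together. Both windows hold the E-box CAGCTG that myogenic factors bind, which reads the same on both strands. The windows run from 250 bases before to 50 bases after the gene start in RefSeq on GRCm38.p6, 5′ to 3′ along the gene, with the word in capitals. Acta1 lies at chr8:123894726-123895025, minus strand, and Ckm at chr7:19410844-19411143, plus strand. Each is the member of its group with the highest mean that was called, had a single window in the table and held the word.
Acta1: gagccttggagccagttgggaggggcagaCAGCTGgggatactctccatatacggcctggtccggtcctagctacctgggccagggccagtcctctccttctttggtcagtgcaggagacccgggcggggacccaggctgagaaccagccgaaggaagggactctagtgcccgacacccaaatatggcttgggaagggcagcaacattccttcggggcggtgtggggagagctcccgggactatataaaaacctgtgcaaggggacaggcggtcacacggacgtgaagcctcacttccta
Ckm: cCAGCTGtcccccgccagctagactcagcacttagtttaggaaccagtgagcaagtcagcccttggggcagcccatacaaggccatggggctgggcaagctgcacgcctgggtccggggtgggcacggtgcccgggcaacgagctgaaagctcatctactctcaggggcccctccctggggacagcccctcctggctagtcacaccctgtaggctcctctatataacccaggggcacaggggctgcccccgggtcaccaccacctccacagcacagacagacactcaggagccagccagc
Of 86 called genes of the filament, Z disc, calcium and energy groups 62 had a window, and 28 of these (45.2%) held CAGCTG, against 16.1% of all 27025 promoters. The MEF2 core TATTTATA, searched on both strands, was in 2 of them and in 1.77% of all promoters. These matches describe letters in a window and not binding.

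Myod1, Myf6 and Myog were higher in muscle P2, and the stem cell factor Pax7 was not detected in either tissue. In the list of satellite cell genes and myogenic factors, 9 of 16 members were called higher in muscle and 1 in periosteum. Of all genes tested, 17.6% were called higher in muscle and 10.4% in periosteum. Pax7, the defining factor of satellite cells, which are the stem cells of muscle, was listed at 0 in all 6 libraries, and Myf5 read 0.717, 0 and 2.79 in muscle P2 and 41.7, 0 and 67.5 in periosteum P2. Myod1, a master regulator of myogenesis, read 1016, 1009 and 1066 in muscle P2 and 0, 3.43 and 1.21 in periosteum P2 (log2 fold change 8.91, SE 1.24, adjusted p = 9.46e-06). Myf6, the factor of mature fibres, read 2520, 2753 and 3181 in muscle P2 and 72.2, 3.45 and 0 in periosteum P2 (log2 fold change 8.67, SE 1.23, adjusted p = 1.22e-05). The tissues did not overlap for either factor. Myog, which drives fusion and terminal differentiation, read 97, 192 and 189 in muscle P2 and was listed at 0 in all periosteum P2 libraries. Spry1, a brake on growth factor signals, read 766, 354 and 315 in muscle P2 and 3.36, 0 and 3.64 in periosteum P2. The member called higher in periosteum was Sdc4, a heparan sulfate proteoglycan that many cells carry, at 486, 618 and 698 in muscle P2 and 5395, 5926 and 6573 in periosteum P2 (log2 fold change -3.32, SE 0.53, adjusted p = 5.46e-05). Of 12 neuromuscular junction genes 4 were called higher in muscle and 2 in periosteum, beside the same 17.6% and 10.4% of all genes. Rapsn, which clusters acetylcholine receptors, read 356, 674 and 679.8 in muscle P2 and was listed at 0 in periosteum P2. The receptor subunit Chrna1 overlapped at 110.3, 214 and 90.4 in muscle P2 and 80.4, 271 and 345 in periosteum P2. Ache, acetylcholinesterase, which red cells also carry, was higher in periosteum at 13, 310.5 and 70 in muscle P2 and 1053, 1434 and 790.0 in periosteum P2 (log2 fold change -3.97, SE 1.5, adjusted p = 0.0492), a call that was lost without the first or the third muscle library or without the first, the second or the third periosteum library (adjusted p = 0.069 to 0.215). The other member called higher in periosteum was Chrnd, a receptor subunit (log2 fold change -3.0, SE 1.01, adjusted p = 0.028), whose call was lost without the second muscle library or without the first or the second periosteum library (adjusted p = 0.0513 to 0.182). Ache and Chrnd were not called in the fit of the 6 libraries alone.

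Nuclear genes of the respiratory chain were mostly called higher in muscle P2, and those of the mitochondrial genome were mostly not called. Of 41 nuclear genes 31 were called higher in muscle (median 2.37) and 1 in periosteum, against 17.6% and 10.4% of all genes tested. Atp5b, the catalytic subunit of ATP synthase, read 47286, 67055 and 52196 in muscle P2 and 12325, 21589 and 14794 in periosteum P2 (log2 fold change 1.8, SE 0.29, adjusted p = 6.66e-05). Atp5c1, its rotor subunit, read 20255, 23686 and 20128 in muscle P2 and 912, 3790 and 2806 in periosteum P2 (log2 fold change 3.32, SE 0.38, adjusted p = 8.32e-07). Ndufb8 of complex I read 19661, 21880 and 18435 in muscle P2 and 2934, 4300 and 2999 in periosteum P2 (log2 fold change 2.57, SE 0.28, adjusted p = 4.41e-07). Muscle libraries were the higher ones for all 3 genes. The exception was Cox6a1, the form of this cytochrome oxidase subunit used outside heart and skeletal muscle, at 1170, 1335 and 1258 in muscle P2 and 5029, 4624 and 6303 in periosteum P2 (log2 fold change -2.07, SE 0.25, adjusted p = 1.54e-06). The muscle form Cox6a2 read 20636, 27545 and 22165 in muscle P2 and 0, 27.7 and 13.3 in periosteum P2 (log2 fold change 11.61, SE 1.24, adjusted p = 3.17e-07). Of 13 genes encoded in the mitochondrial genome 0 were called higher in muscle and 1 in periosteum (median -0.34), no more than the shares of all genes. That gene was mt-Co1, cytochrome oxidase subunit 1, at 58707, 51438 and 35228 in muscle P2 and 154687, 136819 and 170024 in periosteum P2 (log2 fold change -1.69, SE 0.26, adjusted p = 3.28e-05). Its call was lost without the third muscle library (adjusted p = 0.000555), where the fold change fell under the threshold. The number called in this list was 3 without the first muscle library, 3 after quantile normalization and 3 after rescaling without globin and filament genes, and whether these were the same members was not compared. The summed share of the 13 genes was 2.15%, 1.51% and 1.13% in muscle P2 and 3.82%, 2.33% and 3.29% in periosteum P2. Without regard to calls, the libraries did not overlap for 5 members higher in periosteum and 0 higher in muscle. Of all 18442 genes tested, 2568 and 3427 did not overlap in these directions. Of 73 cytosolic ribosomal protein genes 1 was called, Rpl5 (log2 fold change 1.6, SE 0.6, adjusted p = 0.0488), whose call was lost without the first, the second or the third muscle library or without the first or the second periosteum library (adjusted p = 0.0634 to 0.144), and the group's summed share was 1.96%, 2.12% and 2.11% in muscle P2 and 1.55%, 1.39% and 1.62% in periosteum P2. Rpl5 was not called in the fit of the 6 libraries alone. Atp5b and Rpl5 were not called after quantile normalization.

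**Figure D2:**
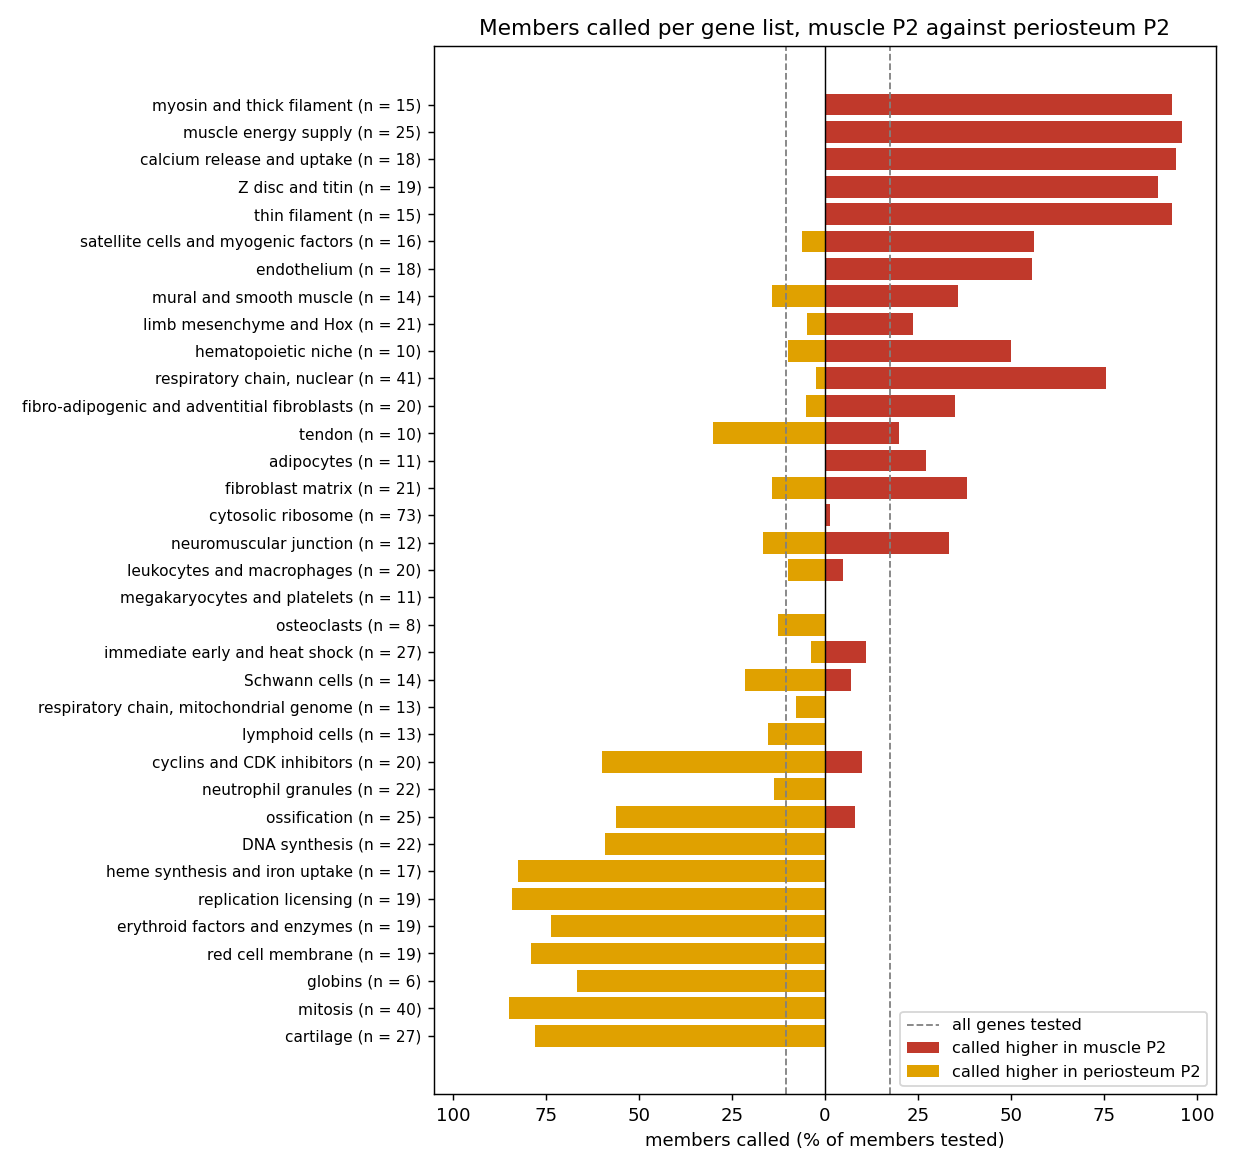
Bars give, for each gene list, the percent of tested members called higher in muscle P2 (right) or in periosteum P2 (left), with lists ordered by median log2 fold change and dashed lines at the 17.6% and 10.4% of all genes tested that were called in each direction. The 5 lists of muscle structure and energy reach furthest right, and the mitosis, licensing, heme, red cell membrane and cartilage lists furthest left.

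Cartilage genes were higher in periosteum P2. Of 27 cartilage genes tested 21 were called higher in periosteum and 0 in muscle, with a median log2 fold change of -9.54, against 10.4% of all genes called in this direction. They took 3.19%, 3.47% and 5.35% of the periosteum P2 libraries and 0.0173%, 0.00992% and 0.0263% of those of muscle. Col2a1, the main fibril collagen of cartilage, read 67.6, 191 and 630.4 in muscle P2 and 240598, 374590 and 590511 in periosteum P2 (log2 fold change -10.86, SE 1.06, adjusted p = 8.18e-08). Col9a3, a collagen on the surface of those fibrils, read 31.2, 3.38 and 30.7 in muscle P2 and 48488, 148460 and 85315 in periosteum P2 (log2 fold change -12.33, SE 1.62, adjusted p = 4.98e-06). Col9a1 of the same trimer read 74.9, 3.36 and 2.57 in muscle P2 and 15677, 20391 and 25763 in periosteum P2 (log2 fold change -10.90, SE 1.29, adjusted p = 1.2e-06). The tissues did not overlap for any of these collagens. Col11a1 and Col11a2, which set fibril width, had log2 fold changes of -10.55 (SE 0.79) and -10.75 (SE 0.81). All 3 periosteum libraries were high for these collagens, and muscle libraries were not at 0 for any of them. Sox9, the transcription factor that specifies chondrocytes, read 261, 161 and 194 in muscle P2 and 2291, 4382 and 6556 in periosteum P2 (log2 fold change -4.32, SE 1.03, adjusted p = 0.00283).

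The smaller matrix proteins of cartilage were also higher in periosteum. Matn3, a matrilin, read 26, 3.01 and 0 in muscle P2 and 11651, 26100 and 32702 in periosteum P2 (log2 fold change -12.14, SE 1.61, adjusted p = 5.34e-06). Mia, a protein secreted by chondrocytes, read 0, 1.01 and 0 in muscle P2 and 4710, 7022 and 6217 in periosteum P2 (log2 fold change -12.19, SE 1.18, adjusted p = 7.28e-08). Epyc, a leucine-rich proteoglycan, read 1.53, 3.15 and 0 in muscle P2 and 3059, 8157 and 5112 in periosteum P2. Muscle libraries were low for all of them. Ucma, a vitamin K-dependent protein of resting chondrocytes, read 2.62, 9.57 and 0.803 in muscle P2 and 4356, 7942 and 11234 in periosteum P2. Scrg1 read 3.67, 0.96 and 0 in muscle P2 and 2375, 5737 and 3454 in periosteum P2 (log2 fold change -10.75, SE 1.69, adjusted p = 4.24e-05). Comp, which joins collagen fibrils in cartilage and tendon, read 212, 98 and 345 in muscle P2 and 14414, 38674 and 50291 in periosteum P2 (log2 fold change -7.29, SE 0.55, adjusted p = 1.85e-09). Genes of hypertrophic cartilage were low. Col10a1, its collagen, read 0, 2.01 and 0.941 in muscle P2 and 0, 5.16 and 7.28 in periosteum P2. Ihh, its signal, read 0, 0 and 15.1 in muscle P2 and 1.67, 0 and 0 in periosteum P2. Prg4, the lubricin of joint surfaces, overlapped at 1187, 766 and 1801 in muscle P2 and 329, 2.1 and 7627 in periosteum P2 (adjusted p = 0.298).

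More bone-forming genes were called higher in periosteum than in muscle. Of 25 ossification genes 14 were called higher in periosteum and 2 in muscle (median -3.08). Of all genes tested, 10.4% and 17.6% were called in these directions, so the muscle count was below the background. Spp1, osteopontin, read 34.5, 31.5 and 210.4 in muscle P2 and 4027, 49732 and 57692 in periosteum P2 (log2 fold change -8.5, SE 1.22, adjusted p = 1.43e-05), and the first periosteum library was the lowest of the 3. Bglap, osteocalcin, read 10.4, 14.9 and 5.52 in muscle P2 and 1054, 656 and 821 in periosteum P2 (log2 fold change -6.29, SE 0.98, adjusted p = 3.89e-05), a value that is uncertain because near-identical copies such as Bglap2 share its reads. Sp7, the osteoblast factor osterix, was listed at 0 in all muscle P2 libraries and read 1.67, 275 and 357 in periosteum P2. The tissues did not overlap for any of these 3 genes, although Sp7 was near 0 in the first periosteum library. Pth1r, the parathyroid hormone receptor, read 36.6, 0 and 0 in muscle P2 and 1303, 2252 and 1097 in periosteum P2 (log2 fold change -8.78, SE 2.14, adjusted p = 0.00335). Sparc, osteonectin, read 17719, 16922 and 23818 in muscle P2 and 51133, 74846 and 106567 in periosteum P2 (log2 fold change -1.95, SE 0.23, adjusted p = 1.3e-06). Col1a1, the main collagen of bone, tendon and fibrous tissue, was the other way at 17146, 19187 and 27530 in muscle P2 and 5699, 4942 and 8924 in periosteum P2 (log2 fold change 1.72, SE 0.56, adjusted p = 0.024), as was Kazald1 at 385, 364 and 333 in muscle P2 and 240.5, 3.48 and 2.41 in periosteum P2 (log2 fold change 4.55, SE 0.95, adjusted p = 0.000873). The call of Col1a1 was lost without the second or the third muscle library or without the first or the second periosteum library (adjusted p = 0.0503 to 0.0864). Col1a2, its partner chain, was not called (log2 fold change 0.85, SE 0.47, adjusted p = 0.186). The fit of the 6 libraries alone called 6 ossification genes higher in periosteum and 1 in muscle, and 20 cartilage genes higher in periosteum. Sp7 and Kazald1 were not called in the fit of the 6 libraries alone. Col1a1 was not called after quantile normalization.

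Red cell genes were higher in periosteum P2 than in muscle P2. The globins summed to 24.1%, 38.6% and 32.1% of the periosteum P2 libraries and 1.56%, 1.17% and 0.899% of those of muscle, and reached 44.2% to 47.3% in P2 of bone marrow. Of 6 globin genes tested 4 were called higher in periosteum, with 14 of 17 genes for heme synthesis and iron uptake. So were 15 of 19 for the red cell membrane and 14 of 19 erythroid factors and enzymes, against 10.4% of all genes tested. None in these 4 lists was called higher in muscle. Hbb-bs, an adult beta globin, read 79209, 64801 and 43955 in muscle P2 and 922600, 2538710 and 1688810 in periosteum P2 (log2 fold change -4.7, SE 0.47, adjusted p = 1.42e-07). Hba-a2, an adult alpha globin, read 111890, 80416 and 63110 in muscle P2 and 1190560, 3612410 and 2246220 in periosteum P2 (log2 fold change -4.68, SE 0.52, adjusted p = 5.78e-07). Hba-a1 and Hbb-bt are nearly identical to these, and how reads were divided among the copies is uncertain. The second periosteum library was the highest for each of the adult globins. The embryonic genes Hba-x and Hbb-y were above 0 in periosteum P2 only in that library, at 25.7 and 317.

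Heme, membrane and regulator genes were higher with the globins. Alas2, the erythroid enzyme that starts heme synthesis, read 3322, 2566 and 2639 in muscle P2 and 22700, 77296 and 45101 in periosteum P2 (log2 fold change -3.93, SE 1.0, adjusted p = 0.0048). Slc25a37, which carries iron into mitochondria, read 1942, 2110 and 1419 in muscle P2 and 16183, 41665 and 28049 in periosteum P2 (log2 fold change -3.89, SE 0.52, adjusted p = 6.35e-06). The second periosteum library was the highest for both genes. Tfrc, the transferrin receptor, read 326, 711 and 497 in muscle P2 and 6982, 18873 and 21738 in periosteum P2 (log2 fold change -4.87, SE 0.96, adjusted p = 0.00053).

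Membrane genes and erythroid factors went the same way. Slc4a1, the anion exchanger band 3, read 3138, 2763 and 3343 in muscle P2 and 37159, 114948 and 61084 in periosteum P2 (log2 fold change -4.38, SE 0.75, adjusted p = 0.000114). Car2, a carbonic anhydrase, read 3061, 3760 and 3250 in muscle P2 and 72014, 194136 and 121597 in periosteum P2 (log2 fold change -5.16, SE 0.63, adjusted p = 1.7e-06). For Slc4a1 and Car2 the second periosteum library was again the highest. Gata1, the master factor of the erythroid lineage, read 73.4, 160.4 and 79.9 in muscle P2 and 1530, 7311 and 2397 in periosteum P2 (log2 fold change -4.92, SE 1.56, adjusted p = 0.02). Its call was lost without the first or the third muscle library or without the second periosteum library (adjusted p = 0.0551 to 0.0763). Klf1, another erythroid factor, was not called, at 0.726, 286 and 86.3 in muscle P2 and 16.9, 5814 and 1363 in periosteum P2 (adjusted p = 0.0797), and its groups overlapped. Each muscle library nevertheless held every adult globin, at 21182 or more.

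Promoters of Alas2 and Rhd, a gene of the Rh blood group complex, are shown with the GATA word AGATAA in capitals, searched on both strands, and were chosen by the rule given for the muscle promoters. Alas2 lies at chrX:150547167-150547466, plus strand, and Rhd, which read 409.7, 491 and 628 in muscle P2 and 12670, 29268 and 18569 in periosteum P2 (log2 fold change -5.24, SE 0.72, adjusted p = 7.91e-06), at chr4:134864286-134864585, plus strand.
Alas2: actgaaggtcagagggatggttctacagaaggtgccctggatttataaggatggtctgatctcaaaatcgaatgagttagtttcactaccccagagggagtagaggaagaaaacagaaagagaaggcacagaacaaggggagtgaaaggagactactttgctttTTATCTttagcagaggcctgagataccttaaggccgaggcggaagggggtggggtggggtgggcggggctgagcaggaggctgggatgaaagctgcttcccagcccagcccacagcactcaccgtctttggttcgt
Rhd: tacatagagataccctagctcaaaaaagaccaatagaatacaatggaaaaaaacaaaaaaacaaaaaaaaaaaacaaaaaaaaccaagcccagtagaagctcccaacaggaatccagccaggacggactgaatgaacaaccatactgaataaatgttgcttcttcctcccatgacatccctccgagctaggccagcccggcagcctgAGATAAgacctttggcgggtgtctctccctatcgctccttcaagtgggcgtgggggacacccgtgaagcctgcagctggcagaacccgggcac
Of 47 called genes of the 4 red cell lists 33 had a window, and 9 of these (27.3%) held AGATAA, against 11.4% of all promoters. The CACCC word CCACACCC was in 1 (3.03%), against 3.57%.

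**Figure D3:**
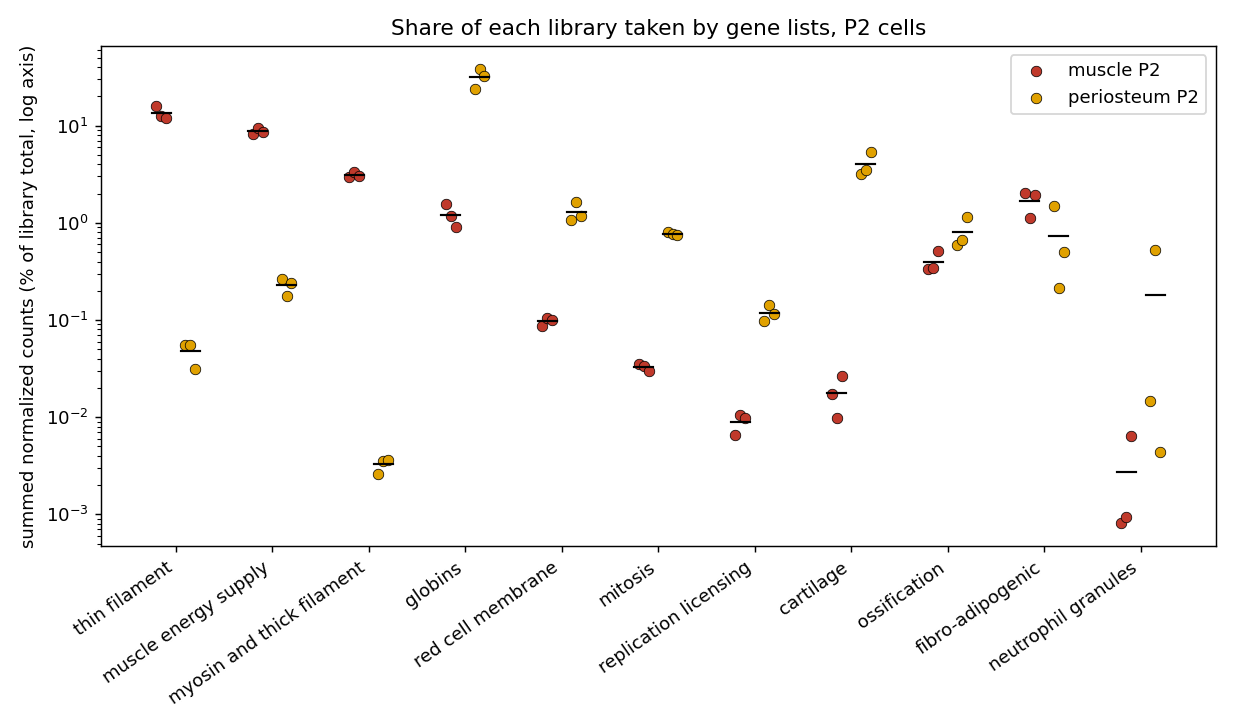
Points give the summed normalized counts of 11 gene lists as a percent of each library's total (log axis), for 3 muscle P2 and 3 periosteum P2 libraries, with bars at the means. Thin filament genes take 12.1% to 16% of muscle P2 libraries, and globins 24.1% to 38.6% of periosteum P2 libraries.

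Genes of the cell cycle were higher in periosteum P2 at each stage. Of 19 licensing genes, which prepare DNA for copying, 16 were called higher in periosteum (median -3.87), against 10.4% of all genes tested. So were 13 of 22 genes of DNA synthesis (median -3.42) and 34 of 40 genes of mitosis (median -4.76), and none of the 3 lists had a member called higher in muscle. Mcm3, a subunit of the replicative helicase, read 9.28, 88.8 and 46.1 in muscle P2 and 2234, 3203 and 2381 in periosteum P2 (log2 fold change -6.19, SE 1.0, adjusted p = 5.75e-05). Mcm7 of the same ring read 260.4, 324 and 205 in muscle P2 and 2131, 5633 and 2727 in periosteum P2 (log2 fold change -3.62, SE 0.51, adjusted p = 1.08e-05). Pcna, the clamp that holds DNA polymerase, read 454, 596 and 549 in muscle P2 and 5183, 9652 and 6458 in periosteum P2 (log2 fold change -3.69, SE 0.34, adjusted p = 3.44e-08). For the helicase and clamp genes the second periosteum library was the highest. Rrm2, which makes deoxynucleotides, read 255, 428 and 539 in muscle P2 and 9500, 22740 and 10915 in periosteum P2 (log2 fold change -5.09, SE 0.55, adjusted p = 3.75e-07). Ube2c, which works with the complex that ends mitosis, read 720.4, 427 and 683 in muscle P2 and 9157, 16190 and 13628 in periosteum P2 (log2 fold change -4.41, SE 0.56, adjusted p = 3.2e-06). Top2a, which untangles DNA, read 131, 327 and 128 in muscle P2 and 13880, 9184 and 6498 in periosteum P2 (log2 fold change -5.73, SE 0.96, adjusted p = 8.77e-05). The first periosteum library was the highest for Top2a and the second for Rrm2 and Ube2c. The proliferation marker Mki67 read 458, 505 and 239 in muscle P2 and 7187, 12263 and 13076 in periosteum P2 (log2 fold change -4.78, SE 0.68, adjusted p = 1.26e-05). For none of these 7 genes did a muscle library reach the lowest periosteum library. The summed share of the mitosis genes was 0.0354%, 0.0339% and 0.03% in muscle P2 and 0.799%, 0.772% and 0.744% in periosteum P2. The red cell lists were also higher in periosteum P2, and their part in the cell cycle difference was not tested. Among periosteum P2 libraries the mitosis share was highest in the first, where the globin share was lowest (24.1%). The licensing and DNA synthesis shares were highest in the second (0.143% and 0.282%), as was the globin share (38.6%).

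Cyclins and inhibitors were less uniform, with 12 of 20 called higher in periosteum and 2 in muscle. Of all genes tested, 10.4% and 17.6% were called in these directions, so the muscle count was below the background. Ccne1, the cyclin of the entry into S phase, read 2.11, 1.35 and 2.01 in muscle P2 and 1075, 4750 and 1392 in periosteum P2 (log2 fold change -9.42, SE 1.03, adjusted p = 4.13e-07). Ccnd3, the D-type cyclin of blood cells among others, read 1120, 2160 and 1327 in muscle P2 and 6454, 8047 and 3776 in periosteum P2 (log2 fold change -1.98, SE 0.32, adjusted p = 6.74e-05). E2f2, a factor that drives S phase genes, read 150.2, 391 and 126 in muscle P2 and 2418, 7851 and 5464 in periosteum P2 (log2 fold change -4.58, SE 0.75, adjusted p = 7.41e-05). The tissues did not overlap for these 3 genes. The members called higher in muscle were Ccnd2, another D-type cyclin (log2 fold change 2.14, SE 0.8, adjusted p = 0.0463), and Rbl2, a repressor of cell cycle genes. Rbl2 read 1325, 761 and 679.8 in muscle P2 and 612, 0 and 0 in periosteum P2 (log2 fold change 6.7, SE 1.81, adjusted p = 0.00737). The call of Ccnd2 was lost without the first, the second or the third muscle library or without the second periosteum library (adjusted p = 0.0615 to 0.447) and that of Rbl2 without the second periosteum library (adjusted p = 0.0521). The inhibitor Cdkn1a overlapped at 3239, 1791 and 1670 in muscle P2 and 3927, 1663 and 2058 in periosteum P2 (adjusted p = 0.854). The fit of the 6 libraries alone called 7 licensing, 9 DNA synthesis, 26 mitosis and 6 cyclin and inhibitor genes higher in periosteum. Ccnd2 and Rbl2 were not called in the fit of the 6 libraries alone. Ccnd2 was not called after quantile normalization.

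Mcm3 and Ube2c promoters are shown for the words that go with S phase and mitosis, E2F (TTTCGCGC or TTTGGCGC) and CHR (TTTGAA), each searched on both strands and in capitals, and were chosen by the same rule. Mcm3 lies at chr1:20820263-20820562, minus strand, and Ube2c at chr2:164769679-164769978, plus strand.
Mcm3: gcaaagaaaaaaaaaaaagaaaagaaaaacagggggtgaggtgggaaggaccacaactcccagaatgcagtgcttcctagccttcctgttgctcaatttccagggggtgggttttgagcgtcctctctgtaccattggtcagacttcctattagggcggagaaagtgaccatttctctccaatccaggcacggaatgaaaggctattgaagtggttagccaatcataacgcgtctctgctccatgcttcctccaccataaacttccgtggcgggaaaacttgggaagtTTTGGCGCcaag
Ube2c: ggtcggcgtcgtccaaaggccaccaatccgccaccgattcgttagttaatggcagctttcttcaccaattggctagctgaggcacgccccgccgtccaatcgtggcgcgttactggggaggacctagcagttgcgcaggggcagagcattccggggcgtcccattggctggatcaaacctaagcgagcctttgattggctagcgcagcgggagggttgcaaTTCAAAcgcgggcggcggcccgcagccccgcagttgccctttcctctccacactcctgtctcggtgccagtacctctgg
Of 29 called licensing and DNA synthesis genes 23 had a window, and 7 (30.4%) held an E2F word, against 0.833% of all promoters. Of 34 called mitosis genes 29 had a window, and 22 (75.9%) held TTTGAA, against 18.1%.

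**Figure D4:**
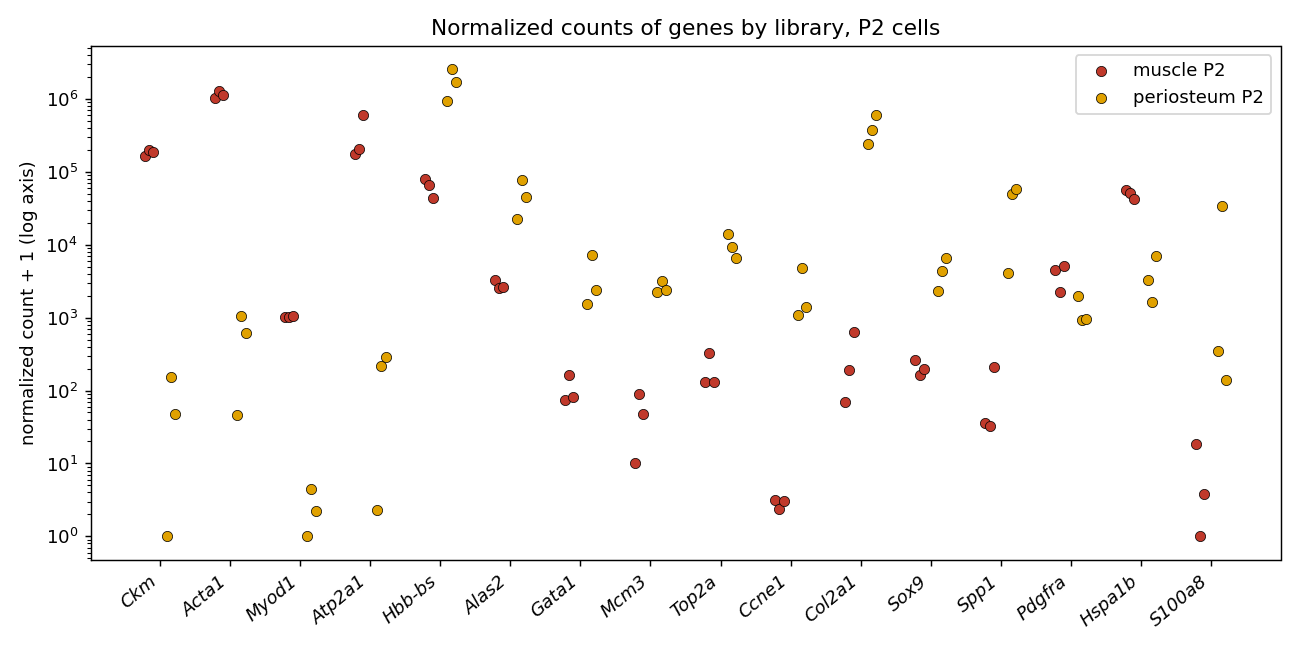
Normalized count + 1 (log axis) of 16 genes in each of 3 muscle P2 and 3 periosteum P2 libraries, points being libraries. Muscle and periosteum points are apart for Ckm, Acta1, Myod1, Atp2a1, Hbb-bs, Alas2, Gata1, Mcm3, Top2a, Ccne1, Col2a1, Sox9, Spp1, Pdgfra, Hspa1b and S100a8, the last with 34147 in the second periosteum library.

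Counts for white blood cell genes are read against the 17.6% of all genes tested that were called higher in muscle and the 10.4% higher in periosteum, and the shares were near or below these. Of 22 neutrophil granule genes 3 were called higher in periosteum, and their summed share was 0.0147%, 0.525% and 0.00435% in periosteum P2, so that the second library carried nearly all of it, against 0.000808%, 0.000932% and 0.0064% in muscle P2. S100a8, a calcium-binding protein of neutrophils, read 17.2, 0 and 2.78 in muscle P2 and 349, 34147 and 139 in periosteum P2 (log2 fold change -8.18, SE 2.23, adjusted p = 0.00768). Ngp, a granule protein, read 0, 0 and 0 in muscle P2 and 3.34, 27041 and 1.21 in periosteum P2 (adjusted p = 0.0879). The call of S100a8 was lost without the second periosteum library (adjusted p = 0.0663). Lyz2, lysozyme of myeloid cells, read 53, 141 and 590.4 in muscle P2 and 613, 10364 and 233 in periosteum P2 and was not called. Without that library 1 of these genes was called, and without the third periosteum library 8 were. Of 20 other leukocyte and macrophage genes 1 was called higher in muscle and 2 in periosteum, of 13 lymphoid genes 2 in periosteum and of 11 platelet genes none, where limma with leave-one-out fits called 0 to 2 higher in periosteum. Itgam, an integrin of myeloid cells, read 107, 9.68 and 17.4 in muscle P2 and 4580, 71 and 63.6 in periosteum P2 (log2 fold change -3.32, SE 1.2, adjusted p = 0.0395), with the first periosteum library far above the others, and its call was lost without the second or the third muscle library or without the first periosteum library (adjusted p = 0.11 to 0.33). Itga2b, the platelet integrin, read 92.7, 48.2 and 60.8 in muscle P2 and 0, 2996 and 794 in periosteum P2 and overlapped. Osteoclast genes, of which 1 of 8 was called, included Ctsk, cathepsin K, at 844, 691 and 1280 in muscle P2 and 283, 740.4 and 1749 in periosteum P2. S100a8 and Itgam were not called in the fit of the 6 libraries alone.

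Connective tissue lists had members called in both directions, beside the 17.6% and 10.4% of all genes. Of 21 fibroblast matrix genes 8 were called higher in muscle and 3 in periosteum. Fn1, fibronectin, was higher in periosteum at 6658, 4390 and 9083 in muscle P2 and 48028, 182643 and 181492 in periosteum P2 (log2 fold change -4.18, SE 0.55, adjusted p = 5.07e-06), as was Mgp, an inhibitor of mineral deposition, at 553, 2052 and 2249 in muscle P2 and 69624, 99253 and 129396 in periosteum P2 (log2 fold change -6.14, SE 1.1, adjusted p = 0.000188). Col3a1, the collagen of soft tissue, was higher in muscle at 51614, 32450 and 98056 in muscle P2 and 20758, 7972 and 19145 in periosteum P2 (log2 fold change 1.9, SE 0.61, adjusted p = 0.0226), as was Dcn, the proteoglycan decorin, at 83536, 49503 and 71296 in muscle P2 and 43893, 5872 and 23558 in periosteum P2 (log2 fold change 1.87, SE 0.46, adjusted p = 0.00395). Of 20 genes of fibro-adipogenic progenitors and adventitial fibroblasts 7 were called higher in muscle and 1 in periosteum. Pdgfra, the receptor that marks these progenitors, read 4552, 2226 and 5160 in muscle P2 and 2001, 939 and 963 in periosteum P2 (log2 fold change 1.62, SE 0.47, adjusted p = 0.0112). Gsn, the actin-severing protein gelsolin, read 294922, 160928 and 282619 in muscle P2 and 134334, 28498 and 69920 in periosteum P2 (log2 fold change 1.88, SE 0.45, adjusted p = 0.00307). Calls were lost for Col3a1 without the third muscle library or without the second periosteum library (adjusted p = 0.116), for Dcn without the second periosteum library (adjusted p = 0.0379), for Gsn without the second periosteum library (adjusted p = 0.0329) and for Pdgfra without the first or the third muscle library or without the second or the third periosteum library (adjusted p = 0.0398 to 0.0579), in some of these fits because the fold change fell under the threshold. The surface proteins Ly6a and Cd34 overlapped, with Ly6a at 10683, 7811 and 13364 in muscle P2 and 22832, 2274 and 3276 in periosteum P2 and Cd34 at 11097, 7408 and 10117 in muscle P2 and 15386, 2834 and 2979 in periosteum P2, the first periosteum library being the highest of all 6. Hsd11b1, which activates glucocorticoid, read 2366, 868 and 1023 in muscle P2 and 1.53, 47.9 and 0 in periosteum P2 (log2 fold change 8.01, SE 1.21, adjusted p = 2.61e-05), and Nt5e, the ectoenzyme CD73, was the member higher in periosteum at 229, 87 and 61 in muscle P2 and 1022, 5663 and 3280 in periosteum P2 (log2 fold change -4.63, SE 1.12, adjusted p = 0.0032). Col3a1, Dcn, Pdgfra and Gsn were not called in the fit of the 6 libraries alone. Col3a1, Dcn, Pdgfra and Gsn were not called after quantile normalization.

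These connective tissue counts rested on the second periosteum library and on the scaling. Without it 2 matrix and 1 fibro-adipogenic genes were called higher in muscle, after quantile normalization 2 and 1, and over all fits that left out a single library 2 to 9 and 1 to 10. In that library the fibro-adipogenic genes took 0.213% of the total, against 1.5% and 0.503% in the other periosteum libraries and 2.03%, 1.13% and 1.92% in muscle P2, and its globin share was the highest of the 3, at 38.6%. The part of the globin share in these differences was not tested.

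Tendon, limb and niche lists had members called in each direction. Against the 17.6% and 10.4% of all genes called higher in muscle and in periosteum, the tendon and limb counts on the muscle side were near the background. Of 10 tendon genes 2 were higher in muscle and 3 in periosteum: Scx, the tendon transcription factor, read 52.5, 10.1 and 53.8 in muscle P2 and was listed at 0 in periosteum P2, Tnmd, tenomodulin, read 316, 61.3 and 168 in muscle P2 and 6.75, 5.2 and 2.44 in periosteum P2 (log2 fold change 4.77, SE 0.76, adjusted p = 4.92e-05). Fmod, fibromodulin, read 1520, 1193 and 1180 in muscle P2 and 19604, 39939 and 53752 in periosteum P2 (log2 fold change -4.75, SE 0.65, adjusted p = 7.31e-06). The tissues did not overlap for these 3 genes. Col12a1, a collagen that coats fibrils, read 449, 158 and 93.1 in muscle P2 and 6573, 15950 and 26328 in periosteum P2 (log2 fold change -6.22, SE 0.59, adjusted p = 6.55e-08). Of 21 limb and Hox genes 5 were called higher in muscle and 1 in periosteum, and leaving out single libraries gave 3 to 9 in muscle. Hoxa10, a positional factor, read 521, 605 and 609 in muscle P2 and 425, 3.37 and 21 in periosteum P2 (log2 fold change 4.07, SE 1.19, adjusted p = 0.0121), a call that was lost without the second periosteum library (adjusted p = 0.0968). Hoxc10 read 1196, 1162 and 1177 in muscle P2 and 299, 79.3 and 229.5 in periosteum P2 (adjusted p = 0.155). Pitx1, the factor of hindlimb identity, read 13.5, 6.09 and 30.6 in muscle P2 and 111, 424 and 333 in periosteum P2 (log2 fold change -4.08, SE 1.07, adjusted p = 0.00596). Of 10 marrow niche genes 5 were called higher in muscle and 1 in periosteum. Those of muscle included Cxcl12, the chemokine that retains blood stem cells, at 1581, 1710 and 1824 in muscle P2 and 449.5, 702 and 526 in periosteum P2 (log2 fold change 1.63, SE 0.47, adjusted p = 0.0115), whose call was lost without the first periosteum library (adjusted p = 0.0365), where the fold change fell under the threshold, and Kitl, the ligand of the receptor Kit, at 385, 129 and 165 in muscle P2 and 48.3, 4.92 and 0 in periosteum P2 (log2 fold change 4.93, SE 0.94, adjusted p = 0.000346). Lepr, the leptin receptor that marks marrow stroma, overlapped at 334, 226 and 36 in muscle P2 and 415, 210.5 and 239 in periosteum P2. Tnmd, Hoxa10, Pitx1 and Kitl were not called in the fit of the 6 libraries alone. Cxcl12 was not called after quantile normalization.

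Vessel, nerve and fat markers were measured as signs of other cells, and their counts stand beside the same 17.6% and 10.4% of all genes. Of 18 endothelial genes 10 were called higher in muscle and none in periosteum, and their summed share was 0.0255%, 0.0761% and 0.0249% in muscle P2 and 0.018%, 0.00955% and 0.00528% in periosteum P2. Pecam1, the adhesion protein CD31, read 498, 1649 and 1005 in muscle P2 and 144, 565 and 199.9 in periosteum P2 (log2 fold change 1.88, SE 0.62, adjusted p = 0.0258). Emcn, endomucin, read 78.4, 974 and 273 in muscle P2 and 0, 0 and 2.89 in periosteum P2 (log2 fold change 7.46, SE 1.04, adjusted p = 9.62e-06). The call of Pecam1 was lost without the second or the third muscle library or without the first or the third periosteum library (adjusted p = 0.0656 to 0.128). The second muscle library was the highest for both genes, and without it 5 endothelial genes were called. Of 14 mural genes 5 were higher in muscle and 2 in periosteum, with Tagln, a smooth muscle protein, at 724, 1852 and 504 in muscle P2 and 90.8, 3.45 and 0 in periosteum P2 (log2 fold change 6.89, SE 1.34, adjusted p = 0.000452) and Cspg4, the proteoglycan NG2 of pericytes and chondrocytes, at 181, 0 and 338 in muscle P2 and 1540, 5718 and 4318 in periosteum P2 (log2 fold change -6.41, SE 1.49, adjusted p = 0.00226). Mural calls higher in muscle fell to 2 without the second muscle library, 2 without the third muscle library and 2 without the second periosteum library. Of 14 Schwann cell genes 1 was higher in muscle and 3 in periosteum, with S100b, which chondrocytes also make, at 19.6, 44.6 and 175 in muscle P2 and 231, 1322 and 2592 in periosteum P2 (log2 fold change -4.08, SE 0.77, adjusted p = 0.000323), while the defining factor Sox10 was above 0 in only 1 library. Of 11 adipocyte genes 3 were higher in muscle, and these were Lpl, lipoprotein lipase (log2 fold change 2.48, SE 0.51, adjusted p = 0.000792), Fabp4, which endothelium also makes (log2 fold change 7.08, SE 1.14, adjusted p = 6.05e-05). Car3, a carbonic anhydrase that muscle also makes, whereas Adipoq, the adipocyte hormone, read 0, 0 and 0 in muscle P2 and 1.67, 1.71 and 0 in periosteum P2. The part of these cell types in the tissue difference was not tested. Pecam1, Tagln, Cspg4 and S100b were not called in the fit of the 6 libraries alone.

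Tissue digestion is known to induce stress genes, and its part in these values was not tested. As a list these genes had fewer calls than the background of 17.6% and 10.4% of all genes. Of 27 immediate early and heat shock genes 3 were called higher in muscle and 1 in periosteum. Without regard to calls, the libraries did not overlap for 10 members higher in periosteum and 5 higher in muscle. Over all 18442 genes tested the libraries did not overlap for 2568 higher in periosteum and 3427 higher in muscle. By this measure the list's share was above that of all genes on the periosteum side and near it on the muscle side. Hspa1b, the inducible chaperone Hsp70, read 55380, 50941 and 42269 in muscle P2 and 3239, 1647 and 7077 in periosteum P2 (log2 fold change 3.88, SE 0.86, adjusted p = 0.0015). Its near-identical copy Hspa1a had a log2 fold change of 3.78 (SE 0.94). The co-chaperone Hsph1 read 2845, 3261 and 959.8 in muscle P2 and 409, 6.88 and 442 in periosteum P2 (log2 fold change 4.2, SE 1.16, adjusted p = 0.00848), a call that was lost without the second periosteum library (adjusted p = 0.079). Quantile normalization called 1 of the list higher in muscle. Fos, the immediate early factor, read 20554, 12801 and 16214 in muscle P2 and 23451, 23162 and 27761 in periosteum P2 (log2 fold change -0.61, SE 0.42, adjusted p = 0.286), and Egr1 overlapped at 33003, 21221 and 10356 in muscle P2 and 17181, 25314 and 29155 in periosteum P2. Btg2, a brake on proliferation, was higher in periosteum at 5801, 4551 and 3323 in muscle P2 and 17951, 20519 and 19012 in periosteum P2 (log2 fold change -2.11, SE 0.49, adjusted p = 0.00243). Hspa1a and Hsph1 were not called in the fit of the 6 libraries alone. Hspa1a and Hsph1 were not called after quantile normalization.

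Outside the lists, the largest fold changes among called genes without overlap added genes on the muscle side. Mef2c, a transcription factor of muscle and other tissues, read 5771, 8391 and 10020 in muscle P2 and was listed at 0 in all periosteum P2 libraries. Art1, a mono-ADP-ribosyltransferase of muscle, read 3880, 5135 and 4534 in muscle P2 and was likewise listed at 0 in all periosteum P2 libraries. No fold is given for either gene. On the periosteum side the 8 largest fold changes all belonged to the cartilage list.

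The tissue difference of P2 was then set against the mean of those of P1 (CD105- CD200+) and P3 (CD105+, CD200 variable), in the same fit. It differed for 3273 of 18442 genes (17.7%), 1665 with a positive difference (further to the muscle side in P2) and 1608 with a negative one. Of these, 2627 (80.3% of the 3273) were among the 5157 genes called in P2 (50.9%). Among the lists, energy supply had the highest share of members called on the muscle side: 22 of its 25 members were called, and its median log2 difference was 9.21 in P2, against 4.34 for P1 and 2.24 for P3. For nuclear respiratory chain genes 34 of 41 were called, with medians of 0.04 in P1, 2.37 in P2 and -0.68 in P3. The medians that follow are in this order of P1, P2 and P3. On the periosteum side 19 of 27 cartilage genes were called, with medians of -3.60, -9.54 and -2.93, and 20 of 40 mitosis genes, with medians of 0.72, -4.76 and -2.49. Mitosis calls were 10 after quantile normalization and 11 without the first muscle library. Globins, of which 4 of 6 were called, had medians of -2.09, -4.66 and -2.65, and 0 were called after quantile normalization and 2 without the second periosteum library. For fibro-adipogenic genes 0 were called on the muscle side and 1 on the periosteum side of 20, with medians of 1.95, 1.75 and 1.45.

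**Figure D5:**
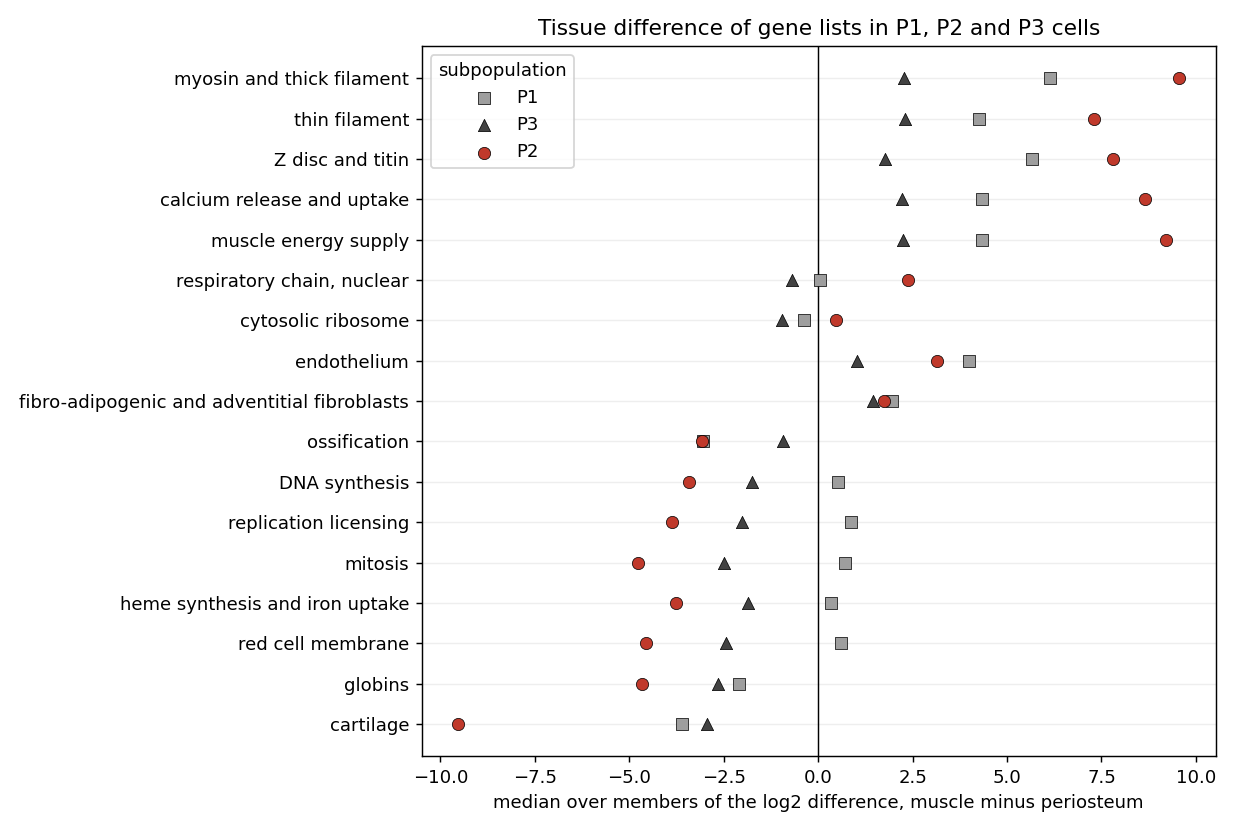
For 17 gene lists, the median over tested members of the muscle minus periosteum difference in mean log2(normalized count + 1) is given for P1 (squares), P2 (circles) and P3 (triangles). P2 lies furthest from 0 for the filament, energy, cartilage, mitosis and globin lists.

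Single genes show how the subpopulations parted. Col2a1 read 5054, 14155 and 1812 in muscle P1 and 62224, 359280 and 75226 in periosteum P1, and the difference of P2 less the mean of P1 and P3 was -5.93 (SE 1.30, adjusted p = 0.00288) on the log2 scale. Car3 was higher in each library of periosteum P1, at 5135, 15426 and 11875, than of muscle P1, at 867, 1755 and 968, but in P2 read 39540, 54997 and 55198 in muscle P2 and 21.1, 94.9 and 43.4 in periosteum P2. Gapdh and Aldoa had differences of 4.86 (SE 0.26, adjusted p = 9.44e-12) and 6.61 (SE 0.31, adjusted p = 1.24e-12). Hspa1b, whose call in P2 was given above, was not called in this contrast, with -0.85 (SE 1.05, adjusted p = 0.6).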

How the data were processed

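Total RNA of sorted cells was amplified with the SMART-Seq v4 Ultra Low Input kit, made into Nextera XT libraries and sequenced on an Illumina HiSeq. Per the methods, the authors trimmed reads with Trim Galore, aligned them with STAR and normalized counts with DESeq2. The genome build, annotation and counting program are not given in the sources used here. The deposited signal values are normalized counts per gene that are not whole, and whole reads could not be recovered from them, so read depth is unknown and no count model was run.

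Of 30153 genes, 18442 reached 10 in 3 or more of the 27 libraries and were tested, and 1 transgene entry was kept out of totals and tests. A linear model of log2(value + 1) over 9 groups of 3 libraries was fitted with limma 3.58.1 (R 4.3.3) with a mean trend in the variance and Benjamini-Hochberg adjustment over all genes tested, and checked on simulated data. Called means an adjusted p under 0.05 and an absolute log2 fold change above 1.5. A fold change on the log2(value + 1) scale understates the change of low genes. Of 715 listed genes in 36 lists, 709 were matched by symbol, 5 by identifier and 1 was not matched.

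Named genes were the 8 largest fold changes in each direction among called genes without overlap of the libraries, the 6 largest among those above 0 in all 6 libraries, up to 4 members of each list with the highest mean, the sorting markers, and the 4 largest differences from P1 and P3 in each direction. Adipoq, Atp2a2, Bglap, Btg2, Ccnd2, Ccne1, Chrnd, Col10a1, Cox6a1, Cox6a2, Emcn, Flnc, Gata1, Hba-x, Hbb-y, Hoxa10, Hsd11b1, Hspa1a, Hsph1, Ihh, Kazald1, Kitl, Klf1, Myf5, Myh7, Myh8, Myog, Nt5e, Pdgfra, Pfkm, Pitx1, Prg4, Pth1r, Rbl2, Rpl5, Scx, Sox10, Sox9, Sp7, Tfrc, Tnmd and Tpm3 were chosen after their values were seen. The comparison and the lists were chosen with earlier results of these data known. Alternatives were other pseudocounts (0.1 and 5), no filter, a mean of at least 50, a replicate block and no variance trend. Others were rescaling to equal totals with and without globin and filament genes, and quantile normalization. Further ones were each of the 6 P2 libraries left out, the 6 P2 libraries alone and adjusted p alone. No library of P1 or P3 was left out. The 6 P2 libraries alone and adjusted p alone were not run for the difference from P1 and P3. Promoter windows and names are from RefSeq on GRCm38.p6, and for genes with several windows the first listed was counted. A few genes that the rule names are not reported here.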

Additional observations from a re-analysis of the deposited data

Results flagged for a closer look

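The tissue difference of P2 was flagged because a test of the difference between subpopulations, the muscle minus periosteum difference of P2 less the mean of those of P1 and P3, called 3273 genes at an adjusted p under 0.05 and an absolute difference above 1.5 on the log2 scale (limma, 27 libraries). The 4 largest in each direction among those whose P2 libraries did not overlap follow. Car3 had a difference of 12.58 (SE 0.89, adjusted p = 2.28e-09). Mstn, myostatin, a brake on muscle growth, had 10.94 (SE 1.75, adjusted p = 0.000157), and read 1481, 839 and 1372 in muscle P2 and 0, 1.68 and 1.18 in periosteum P2 but 1338, 1244 and 60.1 in periosteum P1. For Mef2c, whose value rests on a group listed at 0 and is no bound, it was 10.68 (SE 2.56, adjusted p = 0.00562), with 0, 1268 and 894 in periosteum P1 against 0 in periosteum P2. Rpp14, a subunit of ribonuclease P, had 10.51 (SE 0.71, adjusted p = 1.02e-09) and read 1643, 1241 and 1828 in muscle P2 and 0, 0 and 1.21 in periosteum P2, while its libraries of P1 and P3 lay between 252 and 808.

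In the other direction, Fam132b, erythroferrone, had a difference of -12.65 (SE 2.08, adjusted p = 0.000216). It read 1.28, 0.675 and 0 in muscle P2 and 10.7, 3356 and 210.4 in periosteum P2 but 2229, 3091 and 4790 in muscle P1. Esyt2 had -10.56 (SE 2.51, adjusted p = 0.00523), although its P2 tissue difference alone was not called (log2 fold change -4.85, SE 2.05, adjusted p = 0.0773). Ugt1a6a had -10.44 (SE 2.25, adjusted p = 0.00253), a value that is uncertain because transcripts of the Ugt1a locus share exons, and Iqsec3 had -10.39 (SE 1.25, adjusted p = 5.85e-06), with P2 values of 1.48, 1.97 and 1.94 in muscle P2 and 22.4, 319 and 56 in periosteum P2. Fits that leave out a single P2 library called 2384 to 3931 such genes. The lower count was without the second muscle P2 library and the higher without the first periosteum P2 library. No difference of these 8 genes lost its call or turned its direction in any alternative.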

How the results depend on the processing

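Across every alternative tried, 80 of the 110 named genes that were called kept their call, and 18 lost it in a fit without a single library, 25 in the fit of the 6 P2 libraries alone and 11 after quantile normalization. None of the 110 turned its direction. Smaller changes of setting (a pseudocount of 0.1, no filter, no variance trend, rescaling with or without globin and filament genes) each ended 4 or 5 of these calls, all among Ache, Ccnd2, Chrnd, Col1a1, Col3a1, Cxcl12, Gata1, Itgam, Pdgfra and Rpl5. Fam132b and Iqsec3 were among the 25. The 6 libraries alone called 1789 genes (1129 higher in muscle and 660 in periosteum), and the estimate of the spread then rested on 6 libraries in place of 27. Fits without a single P2 library called 3986 (without the second muscle library) to 5699 genes (without the first periosteum library). Of these, 2616 to 3757 were higher in muscle and 1369 to 1942 in periosteum. For the difference from P1 and P3 these fits called 2384 to 3931, with 1292 to 2187 positive and 1082 to 1744 negative. The other settings called 4452 to 5420 genes. Replicate numbers were shared between the tissues, but deviations of same-numbered libraries did not correlate (r of -0.0143, -0.0184 and -0.0177), so the numbers were not taken as pairs. With the replicate block 5137 genes were called, 3173 for the difference from P1 and P3, and 2 named genes, Ache and Rpl5, lost their call.

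Direction turned in 12 values, all of 8 genes that were not called: for Itga2b with a pseudocount of 0.1 (0.066) and for Ptprc after quantile normalization (-0.16), and otherwise in fits without a single library. Over those fits the log2 fold change was -4.55 to 1.22 for Itga2b (positive without the second or the third periosteum library, and called without the first), -0.19 to 1.43 for Ptprc, -0.46 to 0.20 for Cdkn1a, -0.65 to 0.18 for Egr1, -0.47 to 1.53 for Ihh, -0.33 to 0.98 for Ctsk, -3.83 to 0.33 for Hbb-y (positive without the second periosteum library) and -0.43 to 5.21 for Prg4 (negative without the second periosteum library, and called without the third). The cause was not tested. Read depth behind the values is unknown, and 3 libraries a tissue limit the precision.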
